A study of Mus musculus with 4 samples.

Results

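Eph receptors and ephrins were described in mouse mammary tissue at 4 stages, from the bud (E13.5) to birth (P0). The 10 genes were taken from a fixed list of 7 receptors (Epha1, Epha2, Epha4, Epha7, Ephb2, Ephb3 and Ephb4) and 3 ligands (Efna1, Efnb1 and Efnb2), out of 22 Eph and ephrin genes and 30406 genes listed in every library. Cells of WT C57B6 female mice (C57 B6/N in the study's methods) were dissected, pooled over several embryos and sorted on EpCAM after removal of CD45+, CD31+ and Ter119+ cells, and each stage (embryonic days E13.5, E14.5 and E15.5, and the day of birth, P0) was 1 10x library. No stage had a second library, so a stage and its library cannot be told apart. By the study's methods, P0 tissue was also digested with other enzyme amounts than embryonic tissue and had a red blood cell lysis step.

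Eph receptors form the largest family of receptor tyrosine kinases, and their ligands, the ephrins, are themselves held in the membrane of the neighbouring cell. Ephrin-A ligands are tied to the membrane by a lipid anchor and mainly bind EphA receptors, whereas ephrin-B ligands span it and mainly bind EphB receptors, with EphA4 binding both kinds. Because both partners need cell contact, the pathway is known for sorting cells and keeping tissues apart, by signals that run into the receptor cell and back into the ligand cell.

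Of 5896 deposited barcodes, 1630 cells had at least 5000 UMIs (unique molecular identifiers, each standing for 1 counted transcript) and at most 6% of them on mitochondrial genes. Each cell was called epithelial or mesenchymal by the larger of its summed Epcam, Krt8, Krt18, Krt5 and Krt14 UMIs and its summed Col1a1, Col1a2 and Col3a1 UMIs. In stage order from E13.5 to P0 this gave 98, 45, 532 and 230 epithelial cells and 135, 31, 283 and 273 mesenchymal cells, and 3 cells had no call. Median depth in the same order was 18968, 26725, 24696 and 9973 UMIs per epithelial cell and 16438, 24268, 24376 and 8743 UMIs per mesenchymal cell. No barcode was shared between libraries among the kept cells. The epithelial genes that made the call came to 3269 to 13878 CPM (UMIs for each 1000000 UMIs summed) in epithelium and 41.8 to 358 CPM in mesenchyme, which describes the call and is no check of it. Epithelium of the embryo also carried skin markers (595 to 1772 CPM summed over 8 genes). P0 mesenchyme held 6566 CPM of 2 haemoglobin genes and 87.3 CPM of 3 immune markers, against 9.94 and 6.88 CPM in P0 epithelium, and the part of these cells in the results was not tested.

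Levels in CPM are the summed UMIs of a gene scaled to the total UMIs of that tissue in that library. Where 4 levels stand in a row they are in stage order, from E13.5 to P0. The kit counts transcripts at their 3′ ends, so no value was divided by gene length, and genes are compared with themselves rather than with each other. Intervals are exact at 95% and cover counting error within 1 library only. In such sums, fewer expressing cells and less RNA per cell cannot be told apart.

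Efna1, Epha2 and Epha1 had more transcripts in epithelium than in mesenchyme across the 4 libraries. In an edgeR quasi-likelihood fit of the 8 sums with the library as a block, Efna1 was 10.9-fold higher in epithelium (log2 3.44 ± 0.35 (SE), adjusted p = 0.00164). Epha2 was 10.2-fold higher (log2 3.35 ± 0.39, edgeR adjusted p = 0.00261) and Epha1 4.24-fold higher (log2 2.08 ± 0.50, edgeR adjusted p = 0.0325). The other 7 genes did not pass, and none of the 10 passed towards mesenchyme in edgeR, where Efnb1 and Ephb3 had an unadjusted p under 0.05 in that direction and DESeq2 passed Efnb1. Of the 10364 genes tested, 21.3% passed in either direction, 10.3% towards epithelium and 11.0% towards mesenchyme, so that 3 of 10 is not far from the background. The median log2 difference was -0.11 over the 10 genes and 0.06 over all genes. Leaving out the library of E13.5, E14.5 or E15.5 ended the call of Epha1, with adjusted p = 0.127, 0.12 and 0.148, whereas Efna1 and Epha2 passed without any 1 library.

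**Figure D1:**
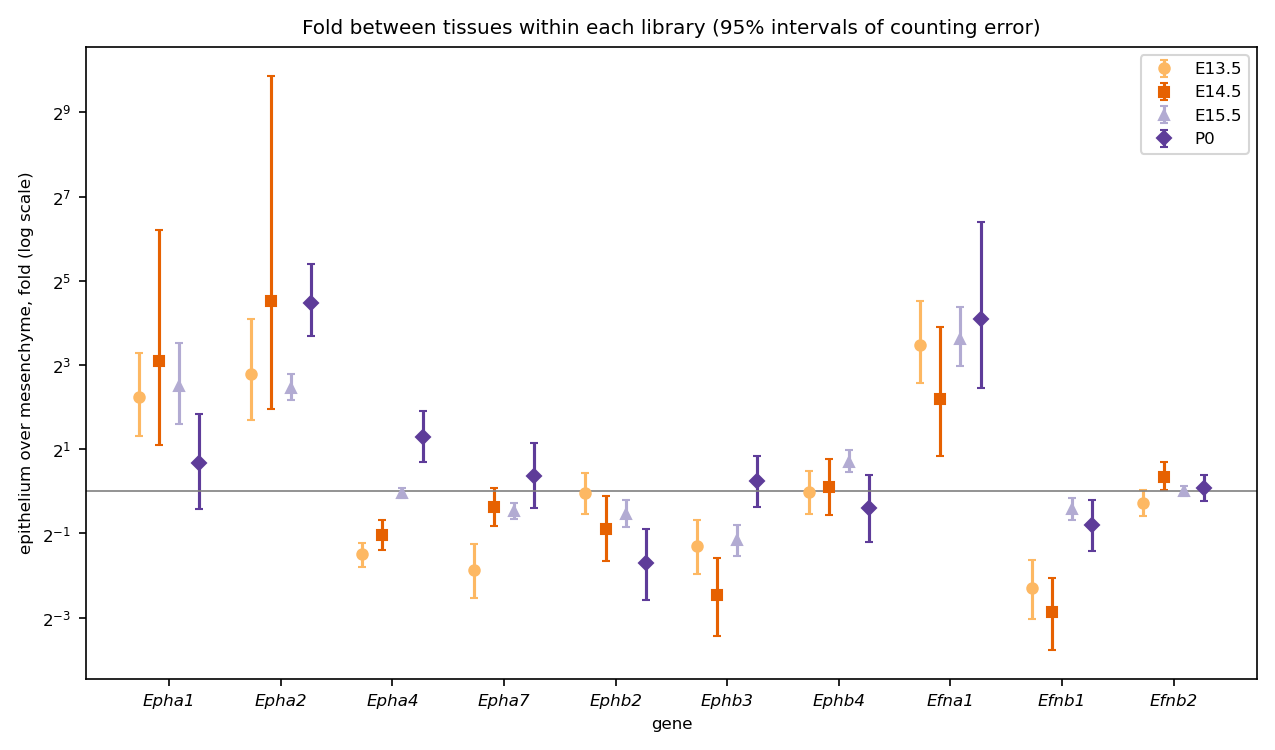
Fold of epithelium over mesenchyme for each gene within each library, on a log scale, with 95% intervals of counting error (1 library per stage). Points above the line at 1 are higher in epithelium. Efna1, Epha1 and Epha2 sit above the line in all 4 libraries, Efnb1 sits below it in all 4, and Epha4 goes from 0.354 at E13.5 to 2.43 at P0.

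The 3 genes that passed lie on separate chromosomes (GRCm38, GENCODE M21). Efna1 lies at chr3:89271733-89281142 on the minus strand, beside Efna3 (chr3:89313899-89322965) and Efna4 (chr3:89333390-89338028). Epha2 lies at chr4:141301240-141329384 on the plus strand and Epha1 at chr6:42358487-42373268 on the minus strand. The 250 bases before a RefSeq start (GRCm38.p6) of each are shown because these are the members that passed, at chr6:42373269-42373518 for Epha1, chr4:141300971-141301220 for Epha2 and chr3:89279646-89279895 for Efna1, 5′ to 3′ on the gene's strand. Capitals mark matches, on either strand, to 4 short motifs, GGGCGG (GC box), GGAATG (TEAD), CAGGTG (E-box) and TGACGTCA (cyclic AMP element).
Epha1: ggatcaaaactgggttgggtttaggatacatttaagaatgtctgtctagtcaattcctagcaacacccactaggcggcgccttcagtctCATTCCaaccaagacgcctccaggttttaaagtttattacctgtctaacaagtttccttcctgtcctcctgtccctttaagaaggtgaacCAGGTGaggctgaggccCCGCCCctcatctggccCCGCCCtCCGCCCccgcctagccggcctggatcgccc
Epha2: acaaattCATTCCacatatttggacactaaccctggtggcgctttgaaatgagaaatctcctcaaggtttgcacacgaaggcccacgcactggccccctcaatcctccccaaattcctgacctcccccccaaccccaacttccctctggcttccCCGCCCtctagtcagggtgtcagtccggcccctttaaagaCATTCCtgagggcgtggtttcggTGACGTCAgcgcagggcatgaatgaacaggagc
Efna1: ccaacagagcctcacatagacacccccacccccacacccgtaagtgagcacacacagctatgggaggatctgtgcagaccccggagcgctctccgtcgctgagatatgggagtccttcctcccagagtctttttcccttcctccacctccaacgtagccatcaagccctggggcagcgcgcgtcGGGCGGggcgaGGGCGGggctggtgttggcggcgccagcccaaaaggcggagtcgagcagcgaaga
The Efna1 stretch shown lies inside the annotated gene. A second RefSeq start of Efna1, whose sequence is not shown, had 1 GC box. Its 250 bases (chr3:89280952-89281201) span the annotated 5′ end of the gene. The GC box stood in all 3 sequences and the TEAD letters stood in those of Epha1 and Epha2. Over 32851 promoters of the same length, 32.7% held the GC box, 12.6% the TEAD letters, 17.2% the E-box and 1.55% the cyclic AMP element. Of 24 promoters found for 21 genes of the family, 19 held the GC box (79.2%), 4 the TEAD letters and 3 the E-box. The 1 with the cyclic AMP element is that of Epha2. No matches overlapped in the 3 sequences, and a match is a description of letters only.

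Epha1 and Epha2 were the receptors of the list that passed the fit towards epithelium. Epha1 stood at 23.5, 20.4, 8.54 and 7.65 CPM in epithelium, and at 4.98, 2.39, 1.52 and 4.79 CPM in mesenchyme. It was 4.72-fold (2.47 to 9.76) higher in epithelium at E13.5, whereas at P0 the fold was 1.6 with an interval from 0.744 to 3.59. Epha2, a receptor found in many epithelia, took the opposite course over the stages. It stood at 23.0, 27.5, 71.4 and 116 CPM in epithelium, and at 3.32, 1.19, 12.9 and 5.18 CPM in mesenchyme. Its epithelial level at P0 was 5.03 times (3.69 to 7.0) that at E13.5, and that of Epha1 at E13.5 was 3.07 times (1.79 to 5.47) that at P0. Of the epithelial cells at E13.5, 23 led with mammary bud markers and 28 with periderm markers (lists below). Epha1 was lower in the bud-marker cells than in the 38 cells between (below). Its level in the bud-marker cells, from few UMIs, lay nearer to that of mesenchyme than to that of the cells between. The E13.5 fold of Epha1 thus describes the epithelium taken whole. The part of this mix in the courses of Epha1 and Epha2 was not tested. The interval of the fold lay above 1 at each stage for Epha2 and at the embryonic stages for Epha1. At E14.5 the fold of Epha2 rested on 35 against 1 UMI. With every cell thinned to 5000 UMIs it had 4 against 0 UMIs there, and taking 3 UMIs for the 0 leaves a bound of -0.12 on the log2 scale, which gives no direction.

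**Figure D2:**
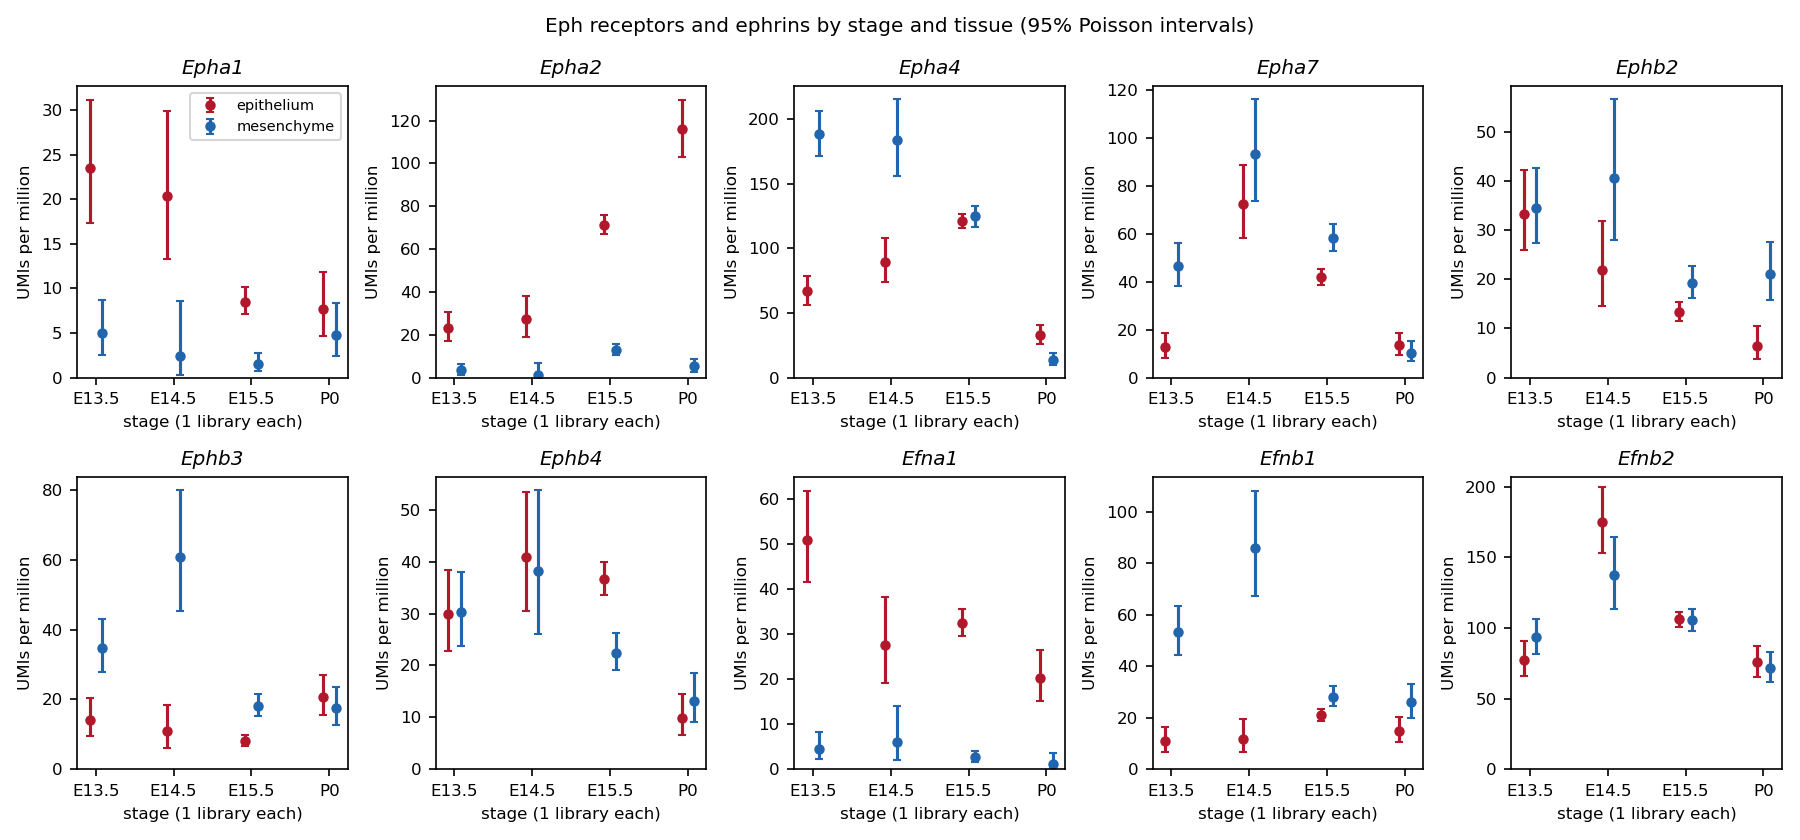
Level of each gene in CPM (vertical axes, each from 0) by stage (1 library each) in epithelium (red) and mesenchyme (blue), with 95% Poisson intervals. Epha2 in epithelium runs from 23.0 to 116 CPM, and Epha4 in mesenchyme from 188 to 13.6 CPM.

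Epha4, the receptor that binds ephrins of both kinds, was placed differently at the stages. It stood at 66.6, 89.5, 121 and 32.9 CPM in epithelium, and at 188, 184, 125 and 13.6 CPM in mesenchyme. Mesenchyme was 2.82-fold (2.33 to 3.45) higher at E13.5 and 2.05-fold (1.60 to 2.64) higher at E14.5, the tissues were level at E15.5 (0.971, 0.895 to 1.05), and epithelium was 2.43-fold (1.61 to 3.72) higher at P0. The mesenchymal level at E13.5 was 13.9 times that at P0 (9.78 to 20.3). Across the 4 libraries the tissues were not separated (edgeR log2 -0.31 ± 0.39, adjusted p = 0.593), and a difference that depends on the stage counts as spread in that fit. Epha7, a receptor of ephrin-A ligands, stood at 12.7, 72.3, 42.0 and 13.4 CPM in epithelium and at 46.5, 93.1, 58.1 and 10.4 CPM in mesenchyme. Mesenchyme was 3.65-fold higher at E13.5 (2.37 to 5.83) and 1.39-fold higher at E15.5 (1.22 to 1.57), and the intervals of the fold at E14.5 and P0 held 1. Both tissues had their highest Epha7 level at E14.5 and their next at E15.5. Epithelial Epha7 at E13.5 lay mostly in cells with mammary bud markers (below), where its level was not below that of mesenchyme. Such cells were 23 of the 98 epithelial cells at E13.5, 28 of the 45 at E14.5 and 53 of the 532 at E15.5. At E15.5 a further 116 cells led with skin markers and 76 with periderm markers, and 287 fell between. Epha4 was also higher in bud-marker cells at E13.5 than in the cells between (below). The part of this mix in the Epha4 and Epha7 folds and stage levels was not tested.

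No EphB receptor of the 10 genes passed the fit in either direction. Ephb2 stood at 33.3, 21.99, 13.4 and 6.50 CPM in epithelium and at 34.5, 40.6, 19.3 and 21.1 CPM in mesenchyme. The tissues were level at E13.5 (0.966, 0.691 to 1.35). Mesenchyme was 1.84-fold (1.09 to 3.16) higher at E14.5, 1.44-fold (1.15 to 1.80) at E15.5 and 3.25-fold (1.85 to 5.99) at P0. The epithelial level of Ephb2 was 5.12 times higher at E13.5 than at P0 (2.98 to 9.30). In the fit it did not pass (edgeR log2 -0.69 ± 0.37, adjusted p = 0.234). Ephb3 stood at 14.2, 11.0, 8.12 and 20.7 CPM in epithelium and at 34.9, 60.9, 18.2 and 17.5 CPM in mesenchyme. Mesenchyme was 2.46-, 5.53- and 2.24-fold higher in the 3 embryonic libraries, and at P0 the fold of epithelium over mesenchyme was 1.18 (0.776 to 1.79). The edgeR adjusted p of Ephb3 was 0.0956 with all libraries and 0.0248 without P0. Ephb4, known as the venous partner of ephrin-B2 in vessels, stood at 29.9, 40.8, 36.7 and 9.94 CPM in epithelium and at 30.3, 38.2, 22.5 and 13.2 CPM in mesenchyme. Its tissues were apart only at E15.5 among the 4 libraries (1.63-fold higher in epithelium, 1.37 to 1.96). Endothelial markers summed to 1.47 to 5.5 CPM in epithelium and 12.04 to 35.1 CPM in mesenchyme, and their part in the Ephb4 levels was not tested.

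Efna1, the ephrin-A ligand of the list, had most of its transcripts in epithelium. It stood at 50.9, 27.5, 32.4 and 20.3 CPM in epithelium and at 4.57, 5.97, 2.62 and 1.20 CPM in mesenchyme. The mesenchymal levels rest on 11, 5, 19 and 3 UMIs. In stage order the fold was 11.2 (5.98 to 23.0), 4.61 (1.80 to 15.1), 12.4 (7.84 to 20.7) and 16.9 (5.49 to 84.8). At E15.5, 50.2% of epithelial cells had an Efna1 UMI and 5.65% of mesenchymal cells did, at nearly equal median depth (24696 and 24376 UMIs). Whether the mesenchymal share is expression or background was not tested.

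Both ephrin-B ligands were present in mesenchyme. Efnb1, an X-linked ligand, stood at 10.8, 11.8, 20.8 and 14.9 CPM in epithelium and at 53.1, 85.9, 28.1 and 25.9 CPM in mesenchyme. In stage order it was 4.93-fold (3.12 to 8.15), 7.29-fold (4.14 to 13.7), 1.35-fold (1.12 to 1.62) and 1.74-fold (1.15 to 2.65) higher in mesenchyme. In the fit Efnb1 lay just outside the threshold of 0.05 (edgeR log2 -1.48 ± 0.43, adjusted p = 0.0554) and passed with DESeq2, with no filter on low counts and without the block (adjusted p = 0.00856, 0.0292 and 0.0305). Efnb2, the ligand of the arterial side in vessels, was the most evenly spread between the tissues taken whole. It stood at 77.4, 175, 106 and 75.7 CPM in epithelium and at 93.4, 137, 105 and 71.8 CPM in mesenchyme. The fitted difference was log2 0.09 ± 0.18 (edgeR adjusted p = 0.765), which does not show that the tissues are alike. Within the libraries the fold of Efnb2 ran from 0.828 to 1.28. Its level differed between marker sets within the epithelium at E13.5 and E14.5, and within the mesenchyme at E15.5 (below). The part of that mix in the Efnb2 folds was not tested.

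Counted by size alone, 7, 6, 4 and 4 of the 10 genes were at least 2-fold apart between the tissues, in stage order. The share over all genes with at least 20 UMIs in both tissues together was 31.5%, 31.3%, 39.0% and 43.0%. Between E13.5 and P0, 6 of the 10 genes differed at least 2-fold in epithelium (5 higher at E13.5, and Epha2 higher at P0), where 37.0% of all genes did. In mesenchyme 4 of 9 counted genes were at least 2-fold higher at E13.5, where 49.6% of all genes differed. The median of all genes was itself 0.59 higher on the log2 scale at E13.5 in mesenchyme, and that of the 9 genes 0.99. P0 mesenchyme is where Col1a1, Col1a2 and Col3a1 made up 74311 CPM, against 4842 CPM at E13.5, and their part in the lower CPM of other genes was not tested.

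Of the other 12 genes of the family, 11 had at least 20 UMIs, 6 could be tested, 2 passed towards mesenchyme, where 11.0% of all genes tested passed, and none towards epithelium (edgeR, where Efna3 had an unadjusted p of 0.0323 towards epithelium, and no alternative, DESeq2 included, brought its adjusted p below 0.0587). Epha3, an EphA receptor, was 31.1-fold higher in mesenchyme (log2 -4.96 ± 0.46, edgeR adjusted p = 0.00132), at 164, 142, 46.6 and 68.6 CPM there and 2.45, 8.64, 2.03 and 0.765 CPM in epithelium. Efna2, an ephrin-A ligand, was 2.58-fold higher in mesenchyme (edgeR adjusted p = 0.0304). That call was lost without the library of E13.5, E14.5 or E15.5 (edgeR adjusted p = 0.0547, 0.0891 and 0.108) and without the library block (0.106), whereas Epha3 passed in each alternative. Epha5 was too low in too many of the sums to be tested. It stood at 17.9, 64.4, 52.8 and 3.59 CPM in mesenchyme against 0, 3.14, 1.82 and 0.765 CPM in epithelium. At E13.5 it was at least 12.2-fold higher in mesenchyme, taking 3 UMIs for the epithelial 0. Efna3, the neighbour of Efna1, stood at 44.6, 23.6, 9.16 and 0.765 CPM in epithelium and at 6.23, 5.97, 8.40 and 0.399 CPM in mesenchyme. Efna5 stood at 54.9, 51.1, 115 and 48.6 CPM in epithelium and at 90.9, 68.0, 32.0 and 36.7 CPM in mesenchyme, with mesenchyme 1.66-fold higher at E13.5 (1.31 to 2.10) and epithelium 3.59-fold higher at E15.5 (3.13 to 4.14). Efnb3 was 4.56-fold higher in mesenchyme at E13.5 and had 4 UMIs in each tissue at P0. In the fit Efnb3 lay just outside the threshold towards mesenchyme (edgeR log2 -1.28 ± 0.37, adjusted p = 0.0542). Its lowest adjusted p over the edgeR and DESeq2 alternatives was 0.0303. Efna4 stood at 32.3 and 25.3 CPM at E13.5 and at 7.65 and 0.399 CPM at P0 in epithelium and mesenchyme. Over the kept cells Ephb6 had 94 UMIs, Epha6 43, Ephb1 35, Epha8 22 and Epha10 3.

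**Figure D3:**
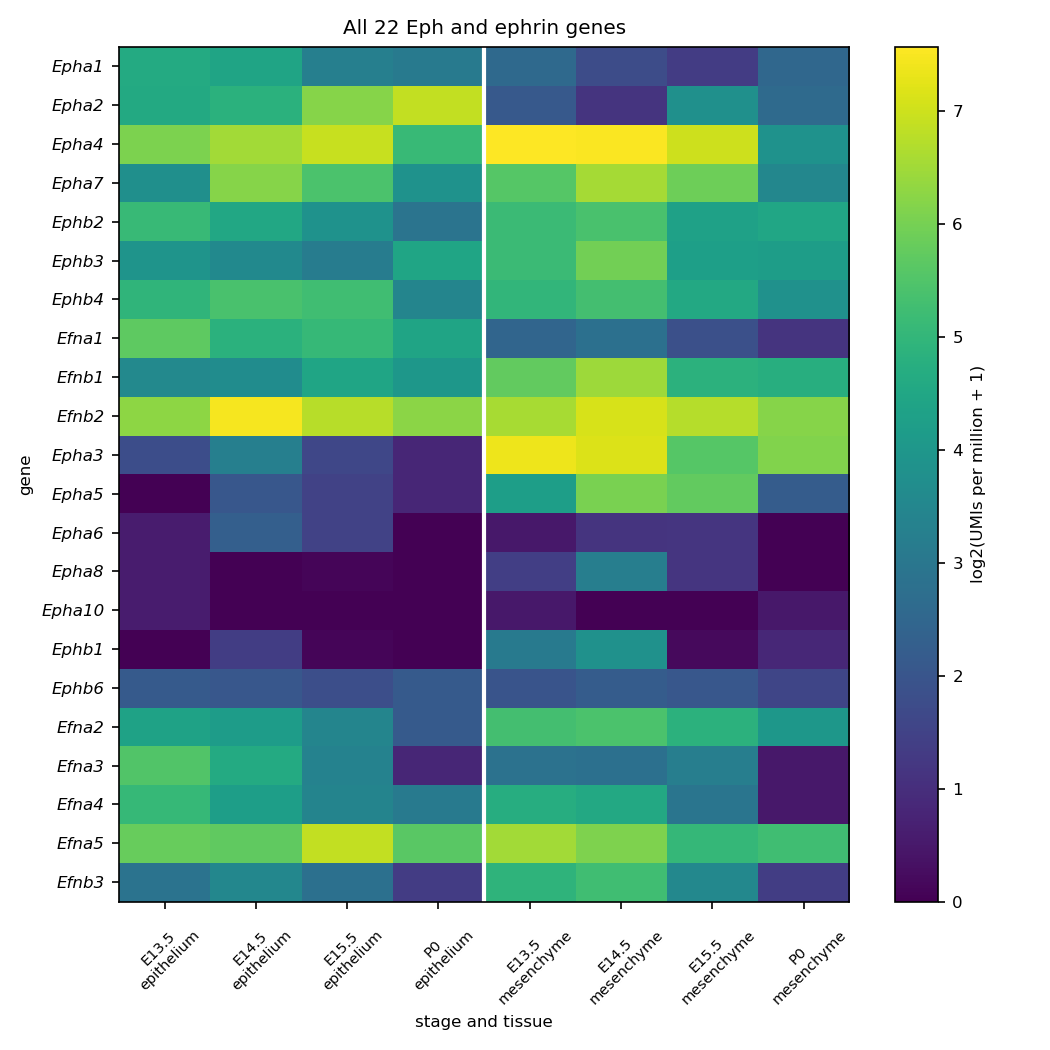
Levels of all 22 Eph and ephrin genes as log2(CPM + 1), by stage in epithelium (left of the white line) and mesenchyme (right). Epha3 is bright in mesenchyme at each stage, at 164 CPM at E13.5 and 68.6 CPM at P0, and Epha5 in embryonic mesenchyme. Efna1 and Epha2 are brighter in epithelium than in mesenchyme at each stage.

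Summed over the family, EphA receptors were the class most unequal between the tissues at E13.5. They came to 130 CPM (115 to 146) in epithelium and 428 CPM (402 to 455) in mesenchyme at E13.5, and to 171 CPM (156 to 188) and 106 CPM (94.1 to 120) at P0. Ephrin-A ligands came to 202 and 165 CPM at E13.5 and to 176 and 78.0 CPM at E15.5 in epithelium and mesenchyme. The ligand sums were 137 and 144 CPM at E14.5, and 80.7 and 53.8 CPM at P0. At E15.5 the receptor sums were closer, at 249 CPM (241 to 257) in epithelium and 299 CPM (287 to 312) in mesenchyme. EphB receptors came to 80.8 and 110 CPM at E13.5 and to 60.7 and 63.2 CPM at E15.5. Ephrin-B ligands came to 94.5 and 176 CPM at E13.5 and to 133 and 144 CPM at E15.5, most of it Efnb2 (79.9% and 73.1% at E15.5).

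Of 33 genes that act with Eph and ephrin proteins, 31 were tested, 5 were higher in epithelium, 2 in mesenchyme and 24 did not pass. The 7 that passed are close to the background of 21.3% of all genes (10.3% towards epithelium and 11.0% towards mesenchyme). Grb7, an adaptor that docks on receptor kinases, was 22.3-fold higher in epithelium (edgeR adjusted p = 0.00166), Grip1, a PDZ scaffold that binds ephrin-B tails, 4.68-fold (edgeR adjusted p = 0.00592), and Tiam1, a Rac exchange factor, 2.68-fold (edgeR adjusted p = 0.0182). Vav3 and Grb2 were the other two. The call of Tiam1 was lost without the library of E13.5, E14.5 or E15.5 (edgeR adjusted p = 0.0738, 0.0685 and 0.0753), and those of Vav3 and Grb2 under several alternatives (highest edgeR adjusted p 0.336 and 0.216). Rgs3, which joins ephrin-B to G protein signals, was 5.26-fold higher in mesenchyme (edgeR adjusted p = 0.00698), and the protease Mmp14 was 3.71-fold higher there (edgeR adjusted p = 0.0138). Rgs3 did not pass without E15.5 (edgeR adjusted p = 0.0526), nor Mmp14 without E14.5 (edgeR adjusted p = 0.0537), whereas Grb7 and Grip1 passed in each alternative that could test them. The sheddases Adam10 and Adam17 did not pass (log2 0.16 ± 0.34 and -0.28 ± 0.29), nor did any of the 5 kinases or 4 phosphatases. Of these, the phosphatase Inppl1 came nearest, 2.58-fold higher in mesenchyme (edgeR adjusted p = 0.0573). Its lowest adjusted p over the edgeR and DESeq2 alternatives was 0.00702. The median log2 difference of the 31 genes was 0.29, against 0.06 over all genes.

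Within the E13.5 epithelium, most Epha7 UMIs (22 of 26) were in cells with mammary bud markers. Each epithelial cell was placed by its summed UMIs of bud markers (Tbx3, Ndnf, Pthlh, Sostdc1, Lmo1, Wnt10b, Wnt6 and Msx1), skin markers and periderm markers (such as Krt17 and Krt6a), where the largest sum had to be at least 5 UMIs and 2 times the next, a rule set after values had been seen. These are ranges of marker sums and not cell types, and 38 of the 98 cells fell between them. A further 9 cells led with skin markers, and their levels are not given. Epha7 stood at 55.7 CPM (34.9 to 84.3) in 23 bud-marker cells, 0 CPM in 28 periderm-marker cells and 2.08 CPM (0.252 to 7.52) in the 38 cells between. It was at least 9.32-fold higher in bud-marker than in periderm-marker cells, taking 3 UMIs for the 0, and 11 of 23 bud-marker cells and 0 of 28 periderm-marker cells had a UMI, at median depths of 16883 and 17644.5 UMIs. After thinning to 5000 UMIs per cell, 3 Epha7 UMIs were left in bud-marker cells and 0 in periderm-marker cells. Bud-marker cells had a median of 35 UMIs of bud markers, 1 of skin markers and 0 of periderm markers.

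Other receptors and ligands were arranged differently in the same cells. Epha4 stood at 127 CPM in bud-marker cells, 81.7 CPM in periderm-marker cells and 38.5 CPM between. Efnb2 stood at 147, 116 and 39.6 CPM, so that bud-marker and periderm-marker cells were both above the cells between. Efna1 stood at 60.8 CPM in bud-marker cells, 23.9 CPM in periderm-marker cells and 55.2 CPM between. Epha1 went the other way, at 7.6 CPM in bud-marker cells and 35.4 CPM between, a fold of 0.215 (0.0422 to 0.682). Of 7 genes with enough UMIs, Epha7 and Efna1 were at least 2-fold higher in bud-marker than in periderm-marker cells and none was lower, where 26.0% of all genes were 2-fold apart. At E14.5, Epha7 stood at 106 CPM in 28 bud-marker cells and 31.1 CPM in 16 cells between, a fold of 3.41 (1.95 to 6.39), and Efnb2 at 268 and 49.8 CPM, a fold of 5.38 (3.51 to 8.59).

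**Figure D4:**
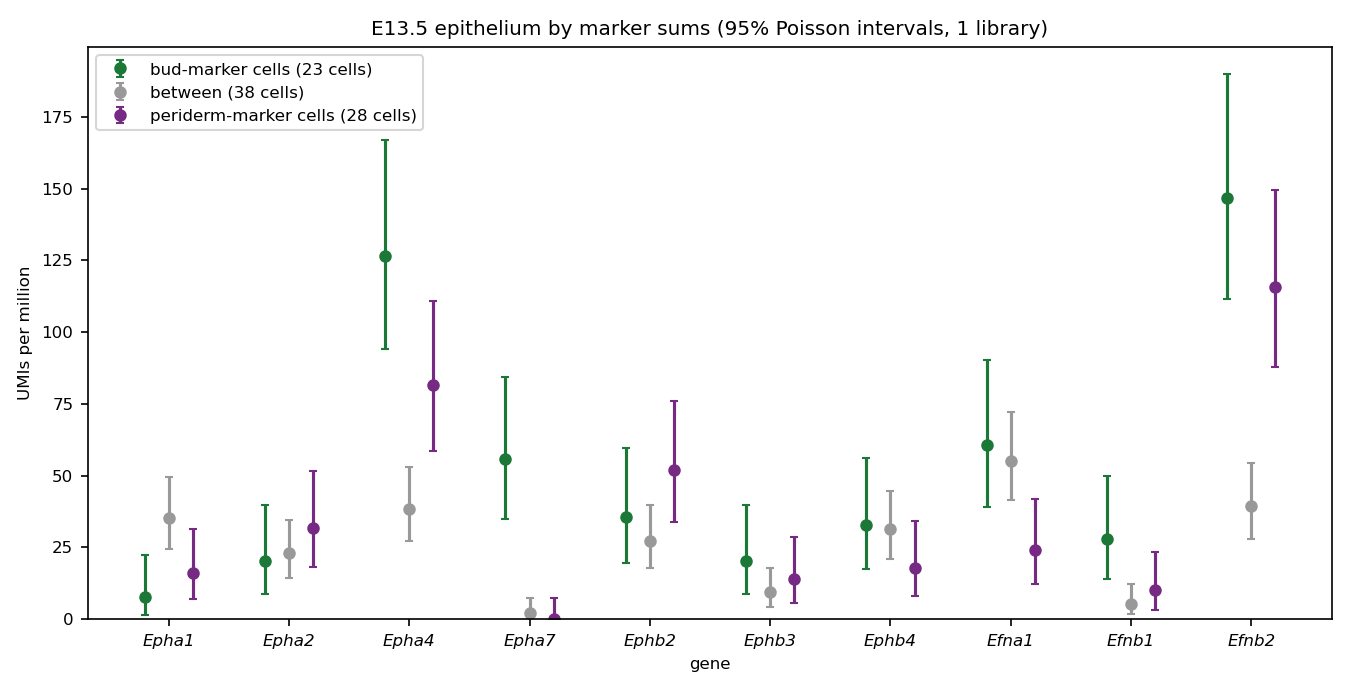
Levels of the 10 genes in CPM in E13.5 epithelial cells with bud markers, with periderm markers or between, with 95% Poisson intervals (1 library). The 9 cells with skin markers are not shown. Epha7 stands at 55.7 CPM in bud-marker cells and at 0 CPM in periderm-marker cells.

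Within the E15.5 epithelium, Epha7 was the gene that most separated basal-marker from luminal-marker cells. Basal markers were Cxcl14, Pthlh, Ndnf, Lmo1, Sostdc1 and Wnt10b, several of which also mark the bud, and luminal markers were Anxa1, Plet1, Lgals3 and Ly6d. By the same rule 238 cells were basal-marker, 165 luminal-marker and 129 between. Epha7 stood at 68.2 CPM (61.8 to 75.2) in basal-marker cells, 29.0 CPM (23.6 to 35.3) between and 18.3 CPM (14.7 to 22.5) in luminal-marker cells, a fold of 3.73 (2.96 to 4.75). A UMI of Epha7 was found in 60.1% of basal-marker and 32.1% of luminal-marker cells at median depths of 23821.5 and 26854 UMIs, and in 26.5% and 7.88% after every cell was thinned to 5000 UMIs. Luminal-marker cells had a median of 37 UMIs of luminal markers. They also had a median of 48 UMIs of skin markers, against 11 in basal-marker cells, and 28 of periderm markers, against 6. The luminal-marker cells were therefore not marked by luminal genes alone. Without the cells placed by skin or periderm markers, Epha7 stood at 75.7 and 23.9 CPM.

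The remaining genes differed less along that range. Ephb4 was 1.71-fold (1.37 to 2.14) and Epha4 1.67-fold (1.48 to 1.88) higher in basal-marker cells, at 42.9 against 25.1 CPM and 145 against 87.3 CPM. Efnb1 was 1.42-fold (1.07 to 1.88) higher there. Efna1 leaned to the luminal-marker side, at 29.2 CPM in basal-marker and 36.4 CPM in luminal-marker cells, a fold of 0.802 (0.647 to 0.994). Without cells placed by skin or periderm markers the Efna1 levels were 25.1 and 39.2 CPM. Epha2 (69.1 and 68.4 CPM) and Efnb2 (109 and 109 CPM) had folds of 1.01 (0.872 to 1.17) and 0.997 (0.888 to 1.12). Of the 10 genes, 1 was at least 2-fold apart, where 15.4% of all genes were.

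**Figure D5:**
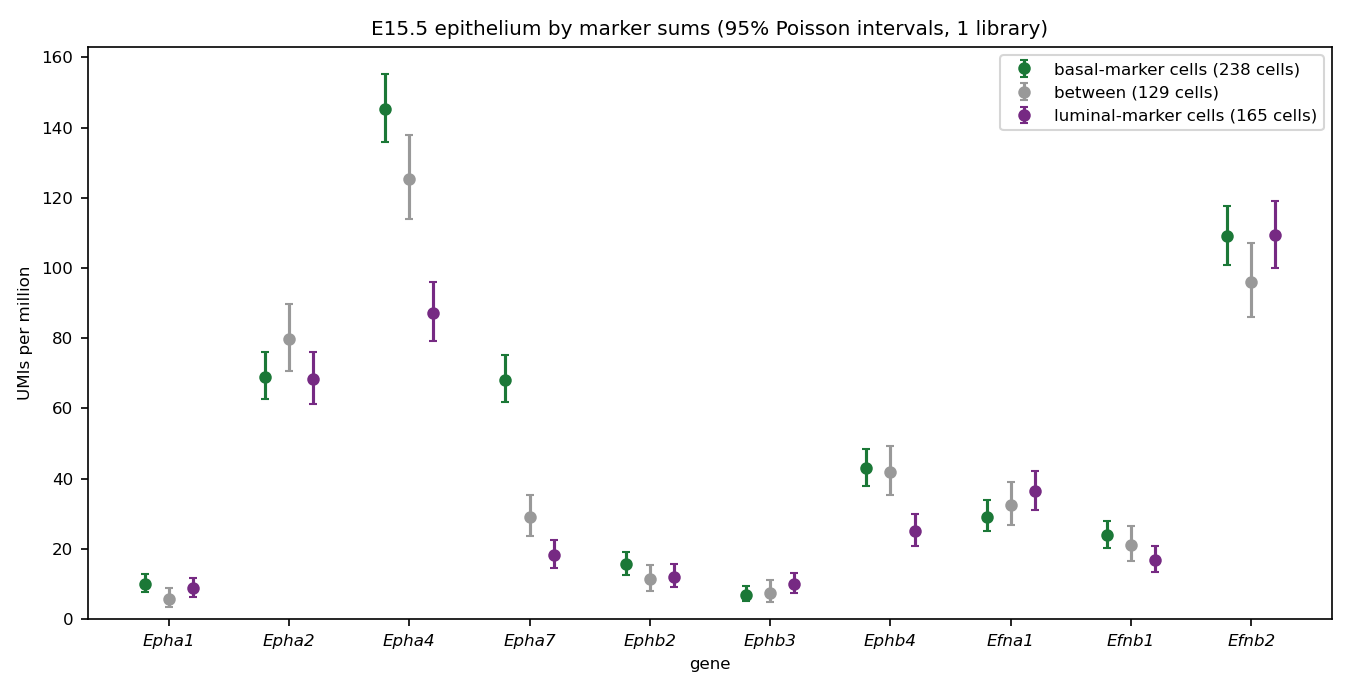
Levels of the 10 genes in CPM in E15.5 epithelial cells with basal markers, with luminal markers or between, with 95% Poisson intervals (1 library). Epha7 stands at 68.2, 29.0 and 18.3 CPM in basal-marker cells, cells between and luminal-marker cells, whereas Epha2 and Efnb2 lie at nearly the same level in basal-marker and luminal-marker cells.

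Receptor and ligand UMIs were counted in the same E15.5 epithelial cells, where droplets holding 2 cells were not measured. Of 532 cells, 131 had UMIs of both Epha7 and Efna1, 125 of Epha7 only, 136 of Efna1 only and 140 of neither. The share with both was 24.6%, and the product of the separate shares 24.2%. In basal-marker cells the share with both was 28.2% against a product of 28.3%, and in luminal-marker cells 18.8% against 17.9%. Epha4 and Efnb2 were found together in 62.2% of cells (product 61.7%) and Ephb4 and Efnb2 in 47.0% (product 44.7%). With each cell thinned to 5000 UMIs, the shares with both were 3.01% for Epha7 and Efna1 (product 2.38%), 14.47% for Epha4 and Efnb2 (product 15.2%) and 6.39% for Ephb4 and Efnb2 (product 6.96%).

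In P0 epithelium, 26 cells had basal markers (such as Acta2 and Myh11), 84 luminal progenitor markers (such as Aldh1a3 and Kit), 48 hormone-sensing markers (such as Prlr and Areg) and 72 fell between. Epha2 stood at 167 CPM in basal-marker cells, 103 CPM in progenitor-marker cells and 104 CPM in hormone-sensing-marker cells, with basal over progenitor at 1.62 (1.12 to 2.32). Efna1 was at 3.41 CPM (1 UMI) in basal-marker cells, 29.8 CPM (26 UMIs) in progenitor-marker cells and 17.4 CPM (13 UMIs) in hormone-sensing-marker cells. The ratio of basal over progenitor was 0.114 (0.00279 to 0.696). Epha4 stood at 54.5, 29.8 and 20.1 CPM, and was 2.72-fold (1.26 to 5.90) higher in basal-marker than in hormone-sensing-marker cells. Ephb3 was 3.71-fold (1.495 to 11.0) higher in progenitor-marker than in hormone-sensing-marker cells, at 29.8 and 8.03 CPM. Epha7 rested on 6, 12 and 6 UMIs and its intervals overlapped.

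Mesenchymal cells were split in the same way by Esr1, Lef1, Crabp1 and Vcan against Plagl1 and Cdkn1c. At E15.5, 177 cells led with the first set and 74 with the second, and 32 fell between. Efnb2 stood at 87.3 and 169 CPM in them, Epha7 at 46.5 and 106 CPM and Ephb2 at 14.8 and 32.5 CPM, with folds of 0.516 (0.442 to 0.605), 0.439 (0.357 to 0.540) and 0.456 (0.314 to 0.667). Epha4 had a fold of 1.17 (0.988 to 1.39) at E15.5. At E13.5 the cells that led with the first set (24 cells) had less Epha4, at 137 against 202 CPM, and less Ephb3, at 15.46 against 39.2 CPM. At P0, Ephb2 and Epha4 were highest in 76 cells with Eln, Mfap4 and Mgp, at 42.2 and 32.8 CPM, against 2.79 and 4.19 CPM in 68 cells with Pi16, Dpp4 and Sema3c. In 39 cells with Col15a1, Fabp4 and Pparg they stood at 21.1 and 3.01 CPM, and 90 cells fell between. The lowest of these P0 levels rest on few UMIs, and the E13.5 and P0 levels of the sets are given without intervals.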

How the data were processed

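Single cell 3′ libraries (10x v3.1) of female WT C57B6 (C57 B6/N in the methods) mammary cells sorted on EpCAM were analysed, 1 per stage. The authors deposited raw UMI counts per gene and barcode, made with Cell Ranger on mm10. The submitters' notes name version 6.0.0, and the header of the E15.5 table names 3.1.0. Every barcode had at least 500 UMIs. No doublet caller was run. Doublets were gated out at the sort per the labels, and droplets holding 2 cells were not measured.

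UMIs were summed per library and tissue. The tissue difference was fitted with edgeR 4.0.16 (TMM, filterByExpr, glmQLFit and glmQLFTest, library as a block, R 4.3.3) over all genes, with Benjamini-Hochberg adjustment. The library is a block because both tissues came from the same pooled dissection. DESeq2 1.42.0 was an alternative. The fit was run on simulated counts that held no stage effect. That run cannot speak for tissue differences that depend on the stage, as in these data. Levels are CPM with exact Poisson intervals and ratios have exact conditional binomial intervals, which cover counting error only. Stages and marker ranges had no test. With libraries as the replicates, p-values measure the spread between stages too.

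The named genes were all 10 of the list, other family genes with at least 20 UMIs, the 3 largest changes each way of the pathway list, and the 2 genes most like each member over the 8 sums. The members, gene lists and markers were chosen with earlier results of these data known, and the margins of the marker sums after values were seen.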

Additional observations from a re-analysis of the deposited data

Results flagged for a closer look

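Epha4 was the only one of the 10 genes whose tissue fold lay beyond its counting interval on opposite sides of 1 at different stages. The fold of epithelium over mesenchyme was 2.43 in the P0 library, against 0.354 in that of E13.5 and 0.487 in that of E14.5. The difference between the stages was not tested, nor was the part in it of the mix of bud-marker and other epithelial cells.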

How the results depend on the processing

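With all libraries 2207 genes passed in the tissue fit. The number was 1278 with every cell thinned to 5000 UMIs and 1361 without the replicate block (the library, which pairs the 2 tissues), and it ran from 883 to 2927 when 1 library was left out (1245 without E13.5, 986 without E14.5 and 883 without E15.5). Of the 10 genes 3 passed, and 2 to 4 did when 1 library was left out. When 1 library was left out, log2 differences ran from -0.73 to 0.021 for Epha4 (turned without E13.5), from -0.13 to 0.40 for Ephb4 (turned without E15.5) and from -0.094 to 0.14 for Efnb2 (turned without E14.5), none of which had passed. Without the block the 3 calls among the 10 genes held and Efnb1 passed as well. Per-stage tissue folds of the 10 genes were recomputed with other cell limits, a stricter tissue call, thinning, and without skin- or periderm-marker cells. Of these values 185 stayed in the interval of the main fold, 14 left it and 1 turned. For basal-marker over luminal-marker or progenitor-marker folds, 93 stayed and 6 left it. Epha2 at E14.5, which rests on 1 mesenchymal UMI, had 4 against 0 UMIs after thinning, a bound of log2 -0.12 with 3 UMIs taken for the 0. The cause of these changes was not tested. Epha7 in basal-marker over luminal-marker cells of E15.5 was log2 1.90, and 2.30 with a margin of 4 times. Efna1 there was log2 -0.32, and -0.64 without cells placed by skin or periderm markers, a setting added after the data had been seen. Epha1 was too low to be tested in thinned cells. Few cells were kept at E14.5 (76), where the mesenchymal sums of Epha1, Epha2 and Efna1 held 2, 1 and 5 UMIs, and that of Efna1 at P0 held 3.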

Other observations

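Over the 8 sums of stage and tissue, the 2 genes whose log2(CPM + 10) was most like that of each member were Kctd1 and Dsg3 for Efna1, Cyb5r3 and Acvr1b for Epha1, Dcaf12 and Atp6ap2 for Epha2, Man1a2 and Nnat for Epha4, and Ube3a and Pex10 for Epha7. They were Uhrf1bp1 and Ccdc127 for Ephb2, E2f5 and Tm9sf4 for Ephb3, Bag6 and Snn for Ephb4, Sesn1 and Fndc5 for Efnb1, and Pygo2 and Pcdh9 for Efnb2. Pearson's r ran from 0.96 to 0.986 across 9571 genes compared. From 42 (Ephb3) to 180 (Epha2) genes reached at least 0.9 with a member, and the 8 sums come from 4 libraries, so these are descriptions only.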
